A study of Komagataella phaffii with 72 samples.

Results

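Y-48124 and X-33 are a pair of *Komagataella phaffii* (*Pichia pastoris*) strains, and their messenger RNA was compared here over both recombinant products that they expressed. The members were chosen by the strain label, giving 18 cultures of 6 Y-48124 clones and 17 cultures of 6 X-33 clones, together 35 of the 72 cultures and 12 of the 24 clones of the series. The whole series covers 4 strains (with GS115 and Y-11430), 2 products, and 3 clones per strain and product, each grown as 3 cultures. The culture titled 12A of X-33 rhGH clone 12 was left out by the definition of the comparison. Its rhGH transgene stood at 12.84 on the log2(TPM + 1) scale, against 10.79 and 10.99 in the sister cultures B and C.

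Y-48124 is a culture collection deposit of X-33, and the study describes both as descendants of the histidine auxotroph GS115 that carry the same altered HIS4 allele and a missense variant of the vacuolar sorting gene RCR2. X-33 additionally carries a missense variant of the helicase gene RVB1 and other variants that Y-48124 lacks. All cultures of both strains contained a secreted human protein gene in pPICZ A under the methanol-inducible AOX1 promoter, either rhGH (growth hormone) or rG-CSF (granulocyte colony-stimulating factor, rhG-CSF in the study). They were grown for 24 hr with 4% glycerol and for a further 24 hr with 1.5% methanol before RNA was collected. A clone is a separate transformant of unequal transgene level, and cultures A, B, and C are repeats of a clone, so p-values over cultures treat repeats of a transformant as independent.

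*K. phaffii* can live on methanol, which it oxidizes in peroxisomes, and on methanol the AOX1 promoter is among its strongest. Secreted products and surface proteins pass the same secretory pathway to the cell wall, a layer of glucan, mannoprotein, and chitin. Strains of common descent are often exchanged for each other as hosts, and the question put to the data was which genes, if any, differed between the deposit and the commercial strain regardless of the product.

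Messenger RNA was read by 3′ DGE, in which each transcript is tagged near its 3′ end. The 35 libraries held 386665 to 2060783 counts (median 1201340) and between 4829 and 5065 of the 5120 genes. Depth was highest in rG-CSF libraries, at 1089464 to 1590521 in Y-48124 and 1151270 to 2060783 in X-33, and lower in rhGH libraries, at 439803 to 1412682 in Y-48124 and 386665 to 1588551 in X-33. The transgenes matched the product labels. The rG-CSF transgene had 358 to 7556 CPM (the counts of a gene scaled to a common library total) in Y-48124 rG-CSF cultures and 1670 to 11649 CPM in X-33 rG-CSF cultures. The rhGH transgene had 1392.4 to 2750 CPM in Y-48124 rhGH cultures and 745 to 3038 CPM in X-33 rhGH cultures, and the transgene of the other product stayed between 18.2 and 139 CPM.

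Few genes separated the strains, and by little. In edgeR's quasi-likelihood fit of the cultures with product as a covariate, 34 of 4738 genes (0.718%) were called at an adjusted p under 0.05. Of these, 15 (0.317%) were higher in Y-48124, by log2 fold changes of 0.27 to 0.62 with a median of 0.34. The other 19 (0.401%) were lower in Y-48124, by log2 fold changes of -0.72 to -0.24 with a median of -0.42. None of the 34 passed an absolute log2 fold change of 1, and 1 gene of all those tested did. All 34 had the same sign within rG-CSF cultures and within rhGH cultures, which a fit over both products favours. The median of the absolute log2 fold changes over all tested genes was 0.0983. The called genes had a median level of 7.20 log2 CPM, against 5.79 over all tested genes, and no neighbouring identifiers were called together.

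With the counts of each clone summed, so that 6 Y-48124 clones were set against 6 X-33 clones, edgeR called 0 of 4971 genes (0%). The smallest adjusted p was 0.380, and 309 genes had an unadjusted p under 0.05. DESeq2 on the same sums called 1 gene, GQ67_01441 (adjusted p = 0.0144). All 34 genes called over cultures had an unadjusted p of at most 0.0432 in the clone sums, which hold the counts they were chosen on, so this is no separate evidence for the calls. Clone levels of the strains did not overlap in either product for 10 of the 34 genes, 6 higher and 4 lower in Y-48124. This held in a single direction for 37 of the 4738 genes tested (0.781%), while 30 genes had clones apart in opposite directions in the products. The 34 genes were called on the same counts, which favours genes whose clones do not overlap.

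**Figure D1:**
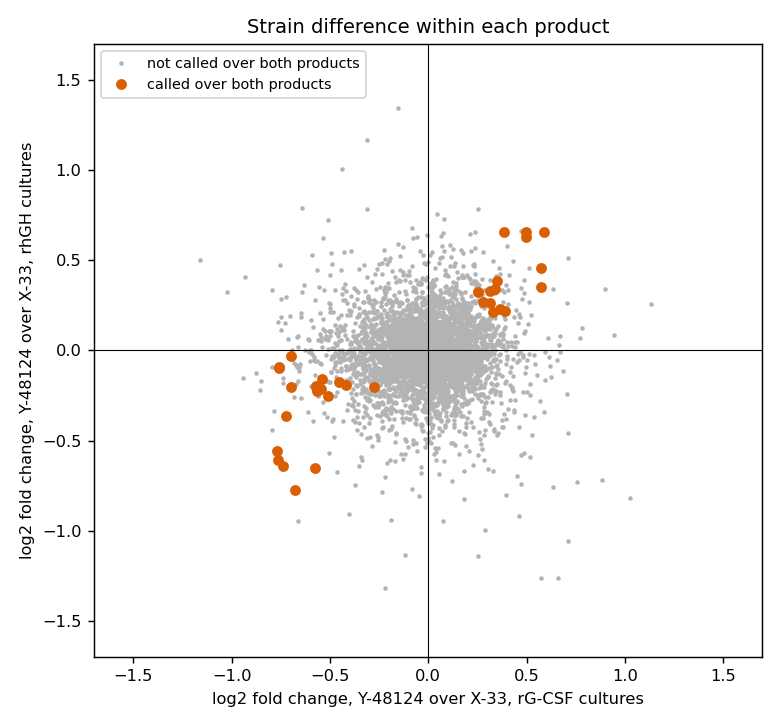
Log2 fold change of Y-48124 over X-33 within rG-CSF cultures (x axis) and within rhGH cultures (y axis) for the 4166 genes tested in both products, with 1 point per gene. The 34 genes called over both products (orange) lie in the quadrants of equal sign, and the cloud of other genes (grey) is centred on 0.

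ZPS1 was the only gene called among the 8 that could be paired with a name, and the names of the other called genes are not known here. It codes in *Saccharomyces cerevisiae* for a putative cell surface protein that responds to low zinc and alkaline pH. Its level in the Y-48124 rG-CSF clones 13, 14, and 16 was 15.7, 23.9, and 22.0 CPM, against 32.1, 41.1, and 18.3 CPM in the X-33 rG-CSF clones 12, 13, and 16. In rhGH strains, the Y-48124 clones 11, 12, and 13 had 14.6, 13.9, and 16.0 CPM, against 17.6, 21.4, and 25.5 CPM in the X-33 clones 12, 13, and 14. The strains did not overlap among rhGH clones, and among rG-CSF clones X-33 clone 16 lay within the range of Y-48124. Over cultures ZPS1 was 0.657-fold as high in Y-48124 as in X-33 (log2 fold change -0.61, standard error 0.15, edgeR adjusted p = 0.0444). In the clone sums, the log2 fold change was -0.57 with a 95% interval of -0.98 to -0.15 and an adjusted p of 0.762. Clone means of log2(TPM + 1) differed by -0.62 between the strains (exact permutation test within products, two-sided, p = 0.025, where 0.005 is the smallest that 400 arrangements allow). The same test was run on 13 genes, and this p is not adjusted for that and passes 0.05 only so.

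The call of ZPS1 was lost when any of 9 clones was left out, namely any Y-48124 clone or X-33 rG-CSF clone 12 or 13 or rhGH clone 14, with adjusted p of 0.0552 to 0.194. Without X-33 rG-CSF clone 16, its log2 fold change was -0.77 (adjusted p = 0.00372).

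A pair of genes known only by identifier, GQ67_01441 and GQ67_03806, represented those higher in Y-48124. They were named for the smallest p in the clone sums among the called genes, so their values are a description. GQ67_01441 had 129, 98.0, and 92.3 CPM in the Y-48124 rG-CSF clones 13, 14, and 16, against 74.2, 77.8, and 71.5 CPM in the X-33 rG-CSF clones 12, 13, and 16. In rhGH strains it had 239, 149, and 185 CPM in the Y-48124 clones 11, 12, and 13, against 120.35, 113, and 116 CPM in the X-33 clones 12, 13, and 14. Every Y-48124 clone lay above every X-33 clone of the same product. The log2 fold change was 0.57 over cultures (standard error 0.10, edgeR adjusted p = 0.00273), or 1.49-fold. It was 0.60 in the clone sums (95% interval 0.36 to 0.85, edgeR adjusted p = 0.380). Single cultures overlapped, the lowest Y-48124 rG-CSF culture at 71.4 CPM lying within the X-33 rG-CSF range of 64.9 to 84.2 CPM. In each strain its rhGH clones also stood above its rG-CSF clones.

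GQ67_03806 differed by less but varied less between clones. Its clones ranged from 206 to 223 CPM in Y-48124 and from 159 to 165 CPM in X-33 with rG-CSF, and from 199.9 to 258 CPM in Y-48124 and from 165 to 195 CPM in X-33 with rhGH. The clones of the strains did not overlap in either product. The log2 fold change was 0.31 over cultures (standard error 0.07, edgeR adjusted p = 0.0295). It was 0.34 in the clone sums (95% interval 0.16 to 0.52, edgeR adjusted p = 0.754). Its call was lost without Y-48124 rG-CSF clone 13 or 14, Y-48124 rhGH clone 11, or X-33 rG-CSF clone 12, with adjusted p of 0.0585 to 0.114.

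Among genes lower in Y-48124, GQ67_03097 and GQ67_02836 were named by the same rule. GQ67_03097 had 17.9, 29.2, and 24.1 CPM in Y-48124 rG-CSF clones, against 37.6, 42.9, and 37.96 CPM in X-33 rG-CSF clones. In rhGH strains it had 15.8, 26.6, and 26.7 CPM in Y-48124 clones, against 38.4, 35.6, and 32.1 CPM in X-33 clones. The clones of the strains did not overlap in either product. The log2 fold change was -0.69 over cultures (standard error 0.17, edgeR adjusted p = 0.0444). It was also -0.69 in the clone sums (95% interval -1.01 to -0.38, edgeR adjusted p = 0.634). In culture C of Y-48124 rhGH clone 11 GQ67_03097 stood at 1.03 CPM, far below the other cultures. Without that clone the log2 fold change was -0.61 (adjusted p = 0.0405). Leaving out any Y-48124 rG-CSF clone, any X-33 rG-CSF clone, or X-33 rhGH clone 12 ended its call, with adjusted p of 0.0526 to 0.159.

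GQ67_02836 had 176, 169, and 156 CPM in Y-48124 rG-CSF clones, against 283, 339.9, and 194 CPM in X-33 rG-CSF clones. In rhGH strains it had 118, 128, and 149 CPM in Y-48124 clones, against 201, 147, and 189.8 CPM in X-33 clones, where Y-48124 clone 13 and X-33 clone 13 overlapped. The log2 fold change was -0.57 over cultures (standard error 0.10, edgeR adjusted p = 0.00654). It was -0.59 in the clone sums (95% interval -0.87 to -0.31, edgeR adjusted p = 0.634). Both GQ67_01441 and GQ67_02836 remained called whichever clone was left out, with adjusted p of at most 0.0494.

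**Figure D2:**
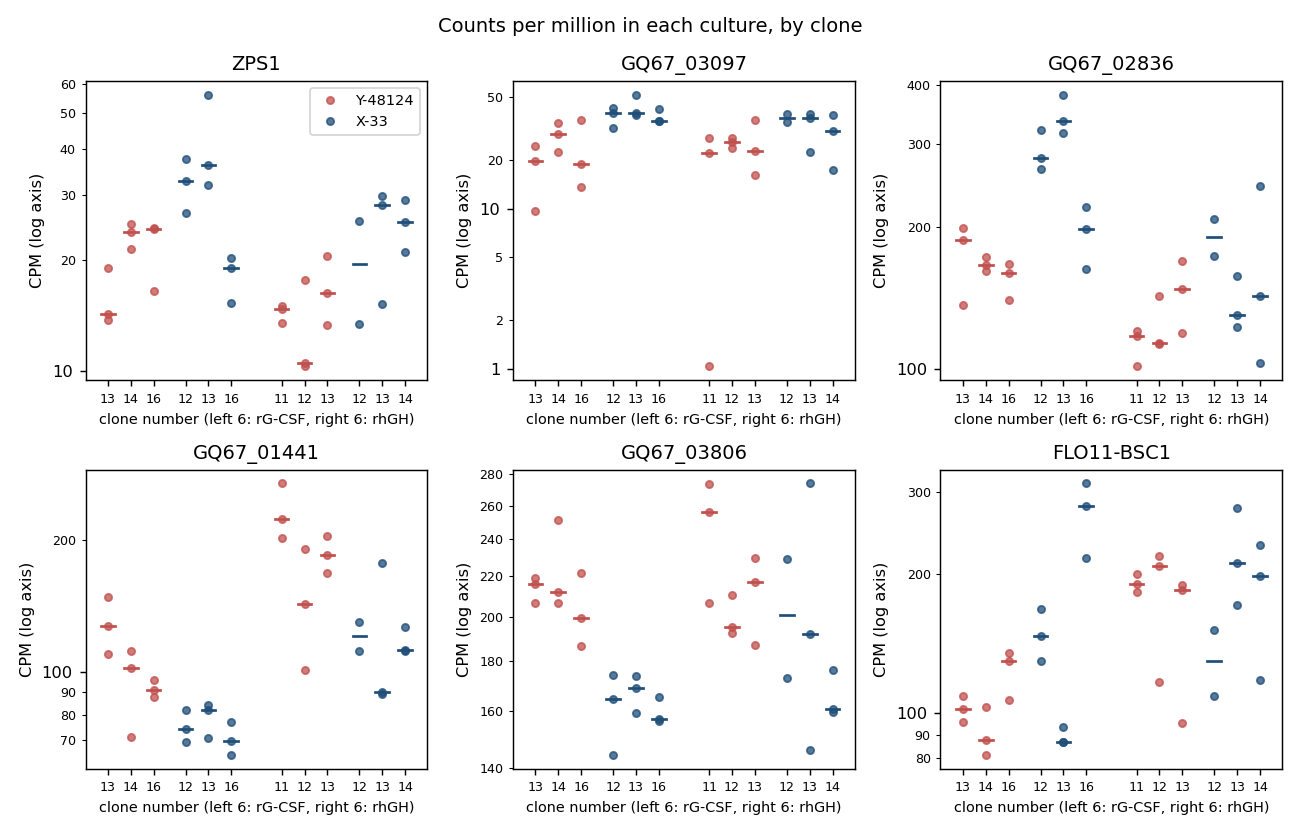
CPM (log axis) of 6 genes in each culture, with 1 column of points per clone and a bar at the clone's median. Y-48124 (red) stands left of X-33 (blue) in each product. The Y-48124 points of GQ67_01441 and GQ67_03806 lie mostly above those of X-33 and the points of ZPS1, GQ67_03097, and GQ67_02836 mostly below, while the X-33 rG-CSF clones of FLO11-BSC1 lie apart from each other.

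Among cell wall genes, FLO11-BSC1 is named after flocculins, surface proteins through which yeast cells adhere to each other and to surfaces. It had 103, 90.4, and 125 CPM in Y-48124 rG-CSF clones, against 144, 88.0, and 276 CPM in X-33 rG-CSF clones. In rhGH strains it had 196, 169, and 147 CPM in Y-48124 clones, against 125, 202, and 164 CPM in X-33 clones. The X-33 rG-CSF clones alone spanned its whole range over the clones of both strains, clone 16 being highest and clone 13 lowest. FLO11-BSC1 was not called, at a log2 fold change of -0.39 over cultures (standard error 0.16, adjusted p = 0.241) and a 95% interval of -0.80 to 0.16 in the clone sums. Its log2 fold change was -0.69 within rG-CSF (adjusted p = 0.0640) and -0.04 within rhGH.

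GQ67_02041, a cell wall gene that the study names by identifier, was called over cultures within rG-CSF but neither in the rG-CSF clone sums nor over both products. The Y-48124 rG-CSF clones had 129.5, 137, and 138 CPM, all above the X-33 rG-CSF clones at 88.6, 71.4, and 118 CPM. The Y-48124 rhGH clones had 104, 100.35, and 118 CPM, against 95.5, 91.6, and 165 CPM in X-33 rhGH clones. X-33 rhGH clone 14 was the highest of all 12 clones. Within rG-CSF cultures the log2 fold change was 0.50 (standard error 0.12, adjusted p = 0.0165), and in the rG-CSF clone sums it was 0.53 (standard error 0.17, adjusted p = 0.616). Within rhGH cultures the log2 fold change was -0.23 (standard error 0.18, adjusted p = 0.960), and over both products it was 0.18 (standard error 0.12, adjusted p = 0.564). The test of the difference between products gave an unadjusted p of 0.00163 and an adjusted p of 0.220 in edgeR, so the difference did not pass correction. Without X-33 rhGH clone 14 the log2 fold change over both products was 0.40 (adjusted p = 0.0223).

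The metal uptake genes CTR1 and FRE1 varied with the clone and the product more than with the strain. In *S. cerevisiae*, CTR1 is the high-affinity copper transporter of the plasma membrane, and FRE1 is a reductase that readies copper and iron for uptake. CTR1 had 788, 1171, and 1047 CPM in Y-48124 rG-CSF clones, against 1037, 776, and 941 CPM in X-33 rG-CSF clones. It had 1785, 2214, and 1280.1 CPM in Y-48124 rhGH clones, against 2007, 2253, and 835 CPM in X-33 rhGH clones. FRE1 had 287, 457, and 394 CPM in Y-48124 rG-CSF clones, against 417, 288, and 379.8 CPM in X-33 rG-CSF clones. It had 578, 646.5, and 492.9 CPM in Y-48124 rhGH clones, against 629, 600.4, and 345 CPM in X-33 rhGH clones. X-33 rhGH clone 14 was the lowest rhGH clone for both genes. The log2 fold changes were 0.08 (standard error 0.12, adjusted p = 0.839) for CTR1 and 0.09 (standard error 0.09, adjusted p = 0.745) for FRE1. Of the variance of log2 CPM of CTR1, 1.33% lay between strains, 47.0% between products, 49.2% between clones of a strain and product, and 2.39% between cultures of a clone. For FRE1 these shares were 1.87%, 42.6%, 50.2%, and 5.37%.

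Neither PDR12 nor YFL040W was called. PDR12, in *S. cerevisiae* the ABC transporter that exports weak organic acids, had 1884 to 3263 CPM over the Y-48124 clones and 2278 to 4164 CPM over the X-33 clones. Its log2 fold change was -0.04 (standard error 0.10, adjusted p = 0.925). YFL040W, a putative transporter, had 281 to 534 CPM over the Y-48124 clones and 203 to 492.6 CPM over the X-33 clones. Its log2 fold change was 0.14 (standard error 0.16, adjusted p = 0.775). With rhGH its X-33 clones 12 and 13, at 203 and 205 CPM, lay below all Y-48124 rhGH clones, while X-33 clone 14, at 309.8 CPM, lay above clones 12 and 13 of Y-48124.

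NIT1, which codes for a nitrilase in *S. cerevisiae*, had 19.5 to 38.5 CPM over the Y-48124 clones and 13.0 to 43.7 CPM over the X-33 clones. Its log2 fold change was -0.01 (standard error 0.19, adjusted p = 0.991), with a 95% interval of -0.37 to 0.42 in the clone sums. YDL218W, a gene of unknown function in *S. cerevisiae*, had 365 to 724 CPM over the Y-48124 clones and 291 to 699 CPM over the X-33 clones. Its log2 fold change was 0.12 (standard error 0.12, adjusted p = 0.728). Y-48124 rG-CSF clone 13, at 724 CPM, was the highest clone for YDL218W, against 365 and 402 CPM in its sister clones. Of the 8 genes paired with names and GQ67_02041, ZPS1 alone was called.

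**Figure D3:**
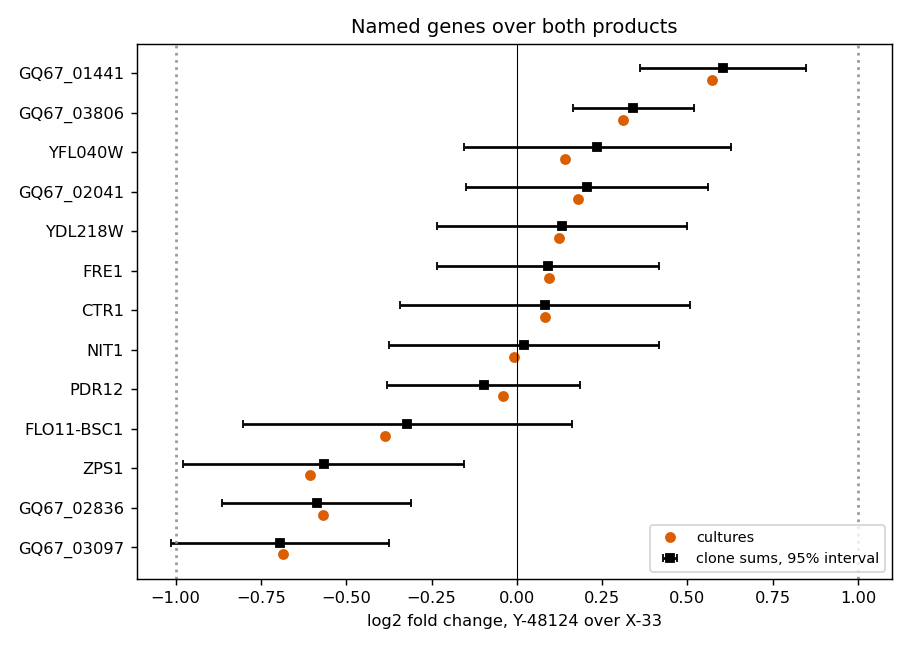
Log2 fold change of Y-48124 over X-33 over both products for 13 named genes, from the culture fit (orange) and from the clone sums with 95% intervals (black), with dotted lines at -1 and 1. The interval excludes 0 for GQ67_01441, GQ67_03806, ZPS1, GQ67_02836, and GQ67_03097 and includes 0 for the other 8 genes. Of these, GQ67_01441, GQ67_03806, GQ67_02836, and GQ67_03097 were chosen for a small p in these clone sums, so their intervals follow from the choice. The intervals are not adjusted for the number of genes tested, and edgeR called 0 of 4971 genes in the clone sums.

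The 8 genes with names belong to a list of 20 in the study's supplement. The list was drawn from strains without transgenes grown on glycerol and not from these cultures. It holds the genes that weighed most on a principal component, an axis of expression on which the study found GS115 distinct. The list was thus not made for Y-48124 against X-33. All 20 were tested over cultures, 0 were called higher and 2 were called lower in Y-48124, ZPS1 and a gene known by identifier only. Over all 4738 genes tested, 15 (0.317%) were called higher and 19 (0.401%) lower. Their log2 fold changes ranged from -0.61 to 0.15 with a median of -0.03, against a median of -0.01 over all tested genes. A positive log2 fold change was found for 8 of the 20, and for 47.4% of all tested genes.

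The median share of variance was larger between clones and between cultures than between strains. In a decomposition of the variance of log2 CPM, the median share over 4738 genes was 1.89% for strain, 6.56% for product, 30.8% for clones of a strain and product, and 52.7% for cultures of a clone. Strain and product have 1 degree of freedom each, clones have 9, and cultures have 23, so the shares are not on an equal footing. The median mean square was 0.0823 for strain, 0.266 for product, 0.146 for clones, and 0.0920 for cultures. A mean square with 1 degree of freedom is skewed, and its median lies further below its mean than with 9 or 23. These medians therefore do not rank strain against clones or cultures. The strain share was 40.1% for GQ67_03806, 29.2% for ZPS1, 25.4% for GQ67_02836, 25.2% for GQ67_01441, and 25.1% for GQ67_03097. These genes were called for a strain difference in the same cultures, so a high share follows from the choice. The strain share was 7.53% for FLO11-BSC1 and 6.62% for GQ67_02041 and under 2% for the other 6 named genes.

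Clones of the strains were about as far apart as clones within a strain. The distance between clones, the root mean square difference of log2 CPM over the tested genes, had a median of 0.408 over 18 pairs of a Y-48124 and an X-33 clone of the same product (0.311 to 0.521). It had a median of 0.402 over 12 pairs of the same strain and product (0.340 to 0.535), and of 0.510 over 36 pairs of different products (0.408 to 0.639). The nearest clone expressed the same product for 11 of the 12 clones. The nearest clone of the same product was of the same strain for 7 of the 12.

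The number of called genes depended on single clones. Without Y-48124 rG-CSF clone 14 it was 3, without Y-48124 rG-CSF clone 13 it was 4, and without X-33 rG-CSF clone 12 it was 6. It was 16 without Y-48124 rhGH clone 11 and 20 without Y-48124 rG-CSF clone 16. Without Y-48124 rhGH clone 12 it was 27, and without Y-48124 rhGH clone 13 it was 40. It was 53 without X-33 rG-CSF clone 16 or X-33 rhGH clone 12, 55 without X-33 rhGH clone 13, 77 without X-33 rG-CSF clone 13, and 87 without X-33 rhGH clone 14. Of the 34 genes, between 3 and 32 were still called with a clone left out. In a limma voom fit that allowed for the correlation between cultures of a clone, estimated at 0.203, 0 genes were called over cultures (smallest adjusted p 0.0681). DESeq2 on the cultures called 86 genes, 42 higher and 44 lower in Y-48124, among them all 34.

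**Figure D4:**
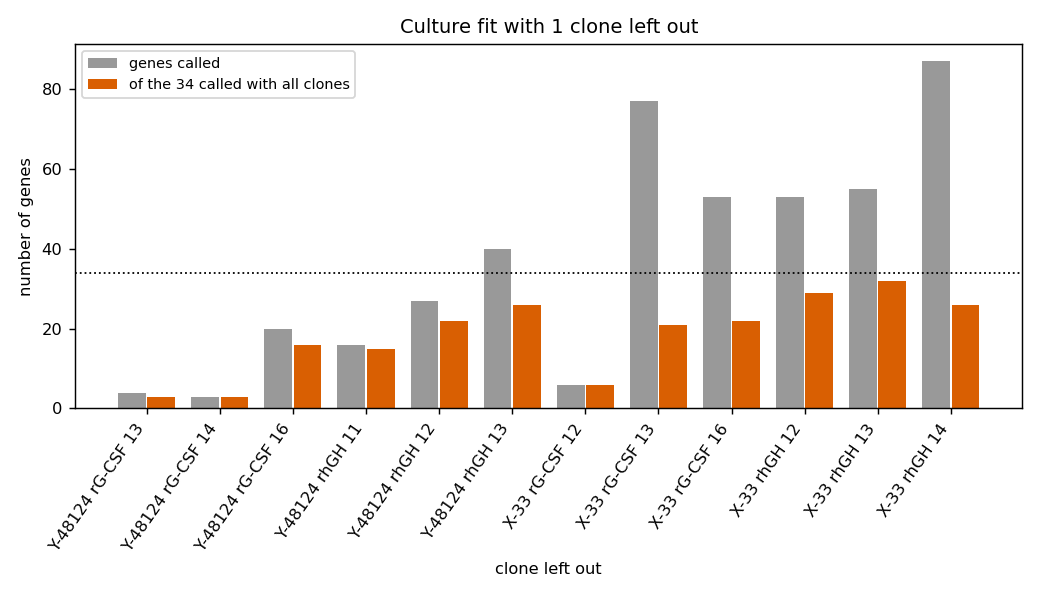
Number of genes called over cultures with each clone left out in turn (grey), and how many of the 34 genes called with all clones are among them (orange), with a dotted line at 34. The 3 lowest bars, at 3 to 6 genes, are rG-CSF clones, and the highest, at 87, is X-33 rhGH clone 14.

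Within rG-CSF cultures, 206 of 4658 genes (4.42%) were called, 70 (1.5%) higher and 136 (2.92%) lower in Y-48124. For the 202 of them that were also tested within rhGH, the log2 fold changes within rG-CSF ranged from -1.02 to 1.03. Of the 206 genes, 23 were among the 34 called over both products. Without X-33 rG-CSF clone 12 there were 41 calls, and without X-33 rG-CSF clone 13 there were 369. In the rG-CSF clone sums, edgeR called 0 of 4952 genes (0%), with 360 genes at an unadjusted p under 0.05. The rG-CSF transgene itself differed between clones, at 9.11 to 12.83 on the log2(TPM + 1) scale in Y-48124 and 10.82 to 13.49 in X-33, and its part in the rG-CSF calls was not tested within that product.

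Within rhGH cultures, edgeR called 0 of 4168 genes (0%), with 248 genes at an unadjusted p under 0.05 and a smallest adjusted p of 0.351, and DESeq2 called 11. The rhGH libraries were shallower, with median totals of 883779 in Y-48124 and 710202.5 in X-33, against 1464573 and 1372965 with rG-CSF, and the part of depth in this count was not tested. In the rhGH clone sums 0 of 4838 genes (0%) were called by edgeR, with 236 at an unadjusted p under 0.05. Of the 34 genes called over both products, 18 had an unadjusted p under 0.05 within rhGH. They were called in a fit that holds these rhGH cultures, so this is no separate evidence for the calls. Among the 206 genes called within rG-CSF, 202 were tested within rhGH, and 117 of those had the same sign there. Their median absolute log2 fold change was 0.481 within rG-CSF, where they were chosen, and 0.0925 within rhGH, against 0.115 over all genes tested within rhGH. Over all 4166 genes tested in both products, 51.5% had the same sign.

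The strain difference was also tested for a difference between the products. In edgeR, 0 of 4738 genes (0%) were called over cultures, with 518 at an unadjusted p under 0.05 and a smallest adjusted p of 0.0937, and 0 of 4971 (0%) in the clone sums, with 314 at an unadjusted p under 0.05. DESeq2 called 7 genes over cultures and 1 in the clone sums. Of the 34 genes, 5 had an unadjusted p under 0.05 in this test, and their smallest adjusted p was 0.128.

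The same cultures and clones differed far more by product. In the same fits, 1290 of 4738 genes (27.2%) were called between rhGH and rG-CSF over cultures, and 660 of 4971 (13.3%) in the clone sums. An absolute log2 fold change above 1 was found for 73 genes between products over cultures. Of the 34 genes called between strains, 21 were also called between products.

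A fit of all 4 strains placed the pair against their relatives. Y-48124 and X-33 together differed from GS115 in 3937 of 4935 genes (79.8%) over cultures and in 3622 of 5046 (71.8%) in the clone sums. They differed from Y-11430 in 1454 genes (29.5%) over cultures and in 346 (6.86%) in the clone sums. The GS115 libraries were deeper, at 1423848 to 33003281 counts, against 386665 to 2060783 in Y-48124 and X-33. The largest was culture A of GS115 rG-CSF clone 14. The part of depth in these counts of genes was not tested. Between Y-48124 and X-33 this fit called 0 genes over cultures (0%), with 358 at an unadjusted p under 0.05, and 0 in the clone sums (0%), with 136. DESeq2 was not run on this fit.

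NIT1 and PDR12 separated both strains from GS115 while neither separated Y-48124 from X-33. NIT1 had a median of 26.7 CPM over the Y-48124 clones and 27.2 CPM over the X-33 clones, against 919 CPM over the GS115 clones and 16.6 CPM over the Y-11430 clones. In the clone sums NIT1 was lower in Y-48124 and X-33 than in GS115 by a log2 fold change of -5.00 (adjusted p = 5.76e-14). PDR12 had a median of 2722 CPM over the Y-48124 clones and 2444 CPM over the X-33 clones, against 98.5 CPM over the GS115 clones and 2583 CPM over the Y-11430 clones, with a log2 fold change over GS115 of 4.75 (adjusted p = 1.38e-12). Averaged over products, ZPS1 was higher in Y-48124 and X-33 than in GS115 by a log2 fold change of 1.26 (adjusted p = 4.67e-05). It was lower than in Y-11430 by -0.73 (adjusted p = 0.0437), but not in both products. With rG-CSF, the Y-11430 clones had 32.3, 84.8, and 103.8 CPM, against 15.7 to 41.1 CPM in clones of the pair. With rhGH, the Y-11430 clones had 12.0, 19.0, and 18.2 CPM, inside or below the pair's range of 13.9 to 25.5 CPM. GQ67_01441 and GQ67_03806 were higher than in GS115 by 2.39 and 1.48, and neither was called against Y-11430. Of the 34 genes called between Y-48124 and X-33, 26 were called against GS115 and 2 against Y-11430 in the clone sums, near the shares of 71.8% and 6.86% over all genes tested there.

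**Figure D5:**
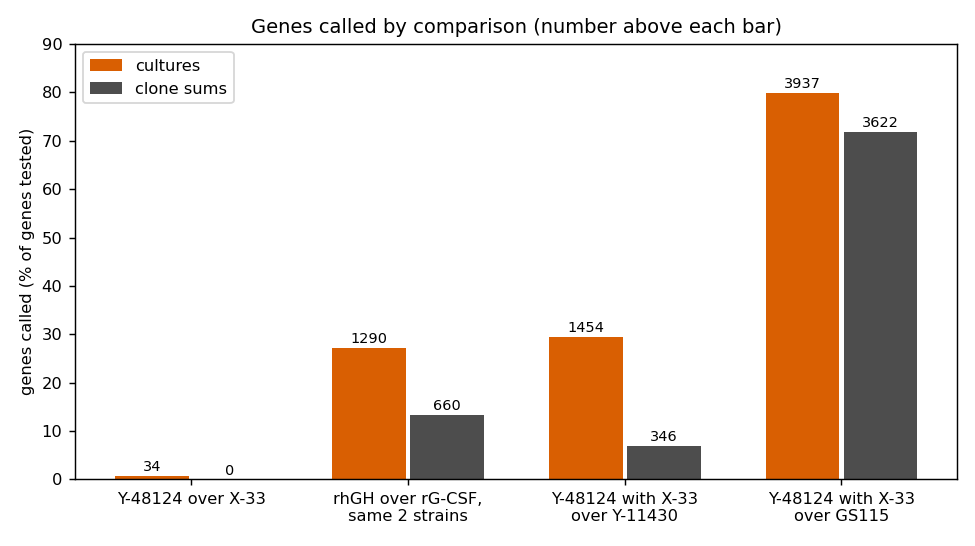
Genes called as a percentage of the genes tested, over cultures (orange) and in clone sums (grey), with the number of genes above each bar. The left pairs of bars come from the fit of Y-48124 and X-33 and the right pairs from the fit of all 4 strains. Calls were 34 and 0 genes between Y-48124 and X-33, and 3937 and 3622 genes against GS115. The fit of all 4 strains called 0 genes between Y-48124 and X-33. Its bars set 12 clones against 6, so heights are not directly comparable between the fits.

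The clone sums also bound the size of a strain difference. The 95% interval of the log2 fold change lay within -1 to 1 for 4723 of 4971 genes (95.01%) and within -0.5 to 0.5 for 3368 genes (67.8%), with a median standard error of 0.133. No gene was clearly present in only 1 of the strains. A count of 0 in all Y-48124 libraries and not in X-33 was found for 2 genes, with at most 8 counts in total in X-33, and the reverse for 2 genes, with at most 3 counts in total in Y-48124. A further 5 genes had no count in either strain.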

How the data were processed

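The authors quantified the 3′ DGE reads with Salmon 0.9.1 on 1 *K. phaffii* transcript per gene with a 3′ extension of 100 nt and on the transgenes, and the submitters' processing notes also name bedtools 2.26.0. The counts that the authors deposited are integers per gene and not normalized. The log2 values that the authors deposited are log2(TPM + 1), where TPM is the length-scaled share of transcripts. Merging of reads by molecular identifier is not given in the sources used here. The 3 transgene rows were taken out before library sizes were computed, except for their own CPM. Genes carry GQ67 identifiers, 0 of which occur in the RefSeq gene table used here, and the study's supplement pairs 8 with names, so at most 2 further identifiers higher and 2 lower in Y-48124 are printed.

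Counts were tested with edgeR 4.0.16 in R 4.3.3 (quasi-likelihood test, TMM normalization, filterByExpr filter, Benjamini-Hochberg adjustment over all genes tested), over cultures and over counts summed by clone. The study's methods name DESeq2 with shrinkage, which was run as an alternative (DESeq2 1.42.0). CPM values were scaled by TMM over the libraries or clones of the 4 strains. Variances and distances used log2 CPM with a prior count of 2. Intervals of 95% came from the clone sums with the total degrees of freedom of that fit, 16.0 for the first gene listed. Single genes were compared by exact permutation of clone means within products. Other alternatives were DESeq2 size factors, no filter, limma 3.58.1 on log2(TPM + 1) with a pseudocount of 1 and on log2(CPM + 1) or log2(CPM + 0.5), limma voom with clones as blocks, the culture letter as a block, 12A kept, transgenes kept in library sizes, an absolute log2 fold change above 1, all 4 strains in the fit, transgene level as a covariate, and each clone left out in turn. The fits were tested on simulated data. Tables and plots used Python 3.11.15, pandas 2.3.3, NumPy 2.4.6, and Matplotlib 3.10.9.

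Cultures of a clone differed by more than sampling noise (chi-square per degree of freedom 2.04 to 14.0, median 3.97 over 34 pairs), so no libraries were merged as duplicates. The labels used here name no sequencing batch. Culture letters did not pair the samples of the strains (correlations of deviations from group means -0.0917 to 0.0591). The named genes were the 8 genes with names, GQ67_02041, and the 2 called genes in each direction with the smallest p in the clone sums. The members, lists, and tests were chosen with earlier results of these data known.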

Additional observations from a re-analysis of the deposited data

Results flagged for a closer look

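GQ67_03097 stood at 0.30 on the log2(TPM + 1) scale in culture C of Y-48124 rhGH clone 11, while the other 8 cultures of that group were between 2.27 and 3.11, a gap wider than Dixon's 95% criterion allows. This was the 1 such value among 60 groups of cultures examined (named genes, transgenes, and total counts by strain and product), where chance alone gives about 3.

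The transgene of the other product was detected in every library, above the limit of 3 counts. The rhGH transgene had 18.2 to 77.0 CPM in the 18 rG-CSF cultures, and the rG-CSF transgene had 38.9 to 139 CPM in the 17 rhGH cultures. The source of these counts was not tested.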

How the results depend on the processing

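The 34 genes called over cultures became 86 with DESeq2, with or without shrinkage, 88 with limma on log2(TPM + 1), 15 with limma on log2(CPM + 1) or log2(CPM + 0.5), and 66 with the transgene level as a covariate (41 higher and 25 lower in Y-48124). On log2(TPM + 1), 6 genes were higher and 82 lower, a different split from the 15 and 19 of edgeR, and the median log2 difference over all genes was -0.08. On log2(CPM + 1), 11 were higher and 4 lower. The count was 0 with limma voom and clones as blocks, 0 with counts summed by clone, 0 with all 4 strains in the fit, and 0 at an absolute log2 fold change above 1. It was 39 with 12A, 35 with DESeq2 size factors, and 33 without a filter. With the culture letter as a replicate block it was 29, and 159 within rG-CSF. Leaving out 1 clone gave 3 to 87. With DESeq2 the clone sums gave 1 gene, the test between products 7 over cultures and 1 in clone sums, and rhGH alone 11. For the test between products, leaving out 1 clone gave 0 to 24 over cultures. The 206 genes within rG-CSF became 317 with DESeq2, 3 at an absolute log2 fold change above 1, 0 with all 4 strains in the fit, and 41 to 369 with 1 clone left out. The causes were not tested.

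Over 27 alternatives, the direction of ZPS1, FLO11-BSC1, and the 4 genes named by p was kept. The call was lost in 17 of them for ZPS1, 13 for GQ67_03097, 9 for GQ67_03806, and 4 each for GQ67_01441 and GQ67_02836. Genes near 0 changed sign. NIT1 had a log2 fold change of 0.048 with limma on log2(CPM + 1), 0.051 on log2(CPM + 0.5), 0.011 with the replicate block, 0.12 with voom, 0.022 in clone sums, 0.0058 with 12A, 0.012 with the transgene covariate, and 0.087 within rG-CSF. YFL040W had -0.25 with 12A and -0.10 within rG-CSF. YDL218W had -0.17 within rhGH. PDR12 had 0.0074 within rhGH. GQ67_02041 had -0.23 within rhGH. With 1 clone left out, the log2 fold change ranged from -0.098 to 0.13 for NIT1, -0.00099 to 0.23 for YFL040W, -0.076 to 0.22 for YDL218W, -0.14 to 0.033 for PDR12, -0.071 to 0.24 for CTR1, and -0.016 to 0.18 for FRE1, the negative values of CTR1 and FRE1 being those without X-33 rhGH clone 14.

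Depth limits the least expressed genes. With 386665 counts in the smallest library, 3 counts are 7.76 CPM, so differences at that level were not detectable in it.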
